A study of Mus musculus with 6 samples.

Results

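Chemokine receptors are G protein-coupled receptors of the cell membrane that steer leukocytes along gradients of chemokines, which are small secreted proteins. The receptors are named after the cysteine pattern of the chemokines that they bind, and each kind of leukocyte carries its own set. In the joint they are best known from the leukocytes of synovium and of the marrow beneath the cartilage, while healthy cartilage has neither vessels nor leukocytes of its own. The 9 receptor genes described here are Ccr1, Ccr2, Ccr3, Ccr7, Cxcr2, Cxcr3, Cxcr4, Cxcr5 and Cx3cr1. They were chosen by name, and all 9 were found among the 33971 genes of the deposited table.

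Articular cartilage of wild-type mice was compared between 3 libraries from animals aged 2 months and 3 from animals aged 18 months. No treatment or transgene is given for either group, the strain of these animals and any pooling are not given in the sources used here, and the study calls the samples of its experiments independent without saying whether each library here came from its own animal, so p-values measure the spread between these libraries. The comparison asked how expression in articular cartilage changes with age. The libraries held 48171507 to 59085179 counts. Between libraries of one age the median chi-square per gene was 13.1 to 48.7 times that of counting noise, except for 18-month replicates 2 and 3, at 6.32. No pair agreed within counting noise, which does not show that they are separate animals, and summing those 2 libraries ended the only receptor call described below.

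Several features of the libraries bear on the receptors. A list of 12 chondrocyte markers summed to 72650 to 86070 CPM (counts scaled to library size, with TMM factors) at 2 months and to 1683 to 7658 at 18 months, where Matn1, a cartilage matrix protein, had 13, 5 and 0 counts. All 12 were called lower, and the 18-month libraries are therefore described by their label only. Below, aged and young cartilage are names for the 18-month and 2-month libraries and do not state which tissue the RNA came from. A list of 5 genes of leukocytes in general, of which 2 were called higher, summed to 3274 to 3710 CPM at 18 months. In the 2-month libraries it summed to 38.8 CPM in replicate 1, 707.5 in replicate 2 and 88.5 in replicate 3. Replicate 2 thus stood apart from the other 2-month libraries, and results are given with and without it. The methods of the study name male mice, yet Xist, which silences one X chromosome in females, had 88239 to 102417 counts in each 2-month library and 11 to 30 in each 18-month library, while Y-linked Ddx3y had 0 to 10 and 4333 to 4839. Age and this sex pattern cannot be told apart. In bulk tissue, fewer cells of a type and less RNA per cell cannot be told apart either.

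Of the 9 receptors, 5 lie on chromosome 9 and 2 on chromosome 1, in the coordinates of the table, which for 8 of the 9 were identical in the GRCm38 annotation GENCODE M21. Ccr1 (ENSMUSG00000025804, 123962124 to 123968692, minus strand), Ccr3 (ENSMUSG00000035448, 124021972 to 124031689, plus strand) and Ccr2 (ENSMUSG00000049103, 124101950 to 124113557, plus strand) lie within 151.4 kilobases of chromosome 9, with Ccr1l1 between Ccr1 and Ccr3. Ccr1l1 is a close relative of Ccr1, so the authors' counting could have divided shared reads between them. On the same chromosome are Cxcr5 (ENSMUSG00000047880, 44511787 to 44561877, minus strand, overlapped by Bcl9l on the plus strand) and Cx3cr1 (ENSMUSG00000052336, 119901616 to 120068296, minus strand). The interval of Cx3cr1 spans 166681 bases and holds or overlaps 8 other genes of GENCODE M21, of which 3 are on the same strand. The length that its counts and FPKM (fragments per kilobase of transcript, scaled to library size) imply is 5109 to 5275 bases, so the FPKM values were scaled to transcript and not to genomic length. Cxcr2 (ENSMUSG00000026180, 74153989 to 74161246, plus strand) and Cxcr4 (ENSMUSG00000045382, 128588199 to 128592293, minus strand) lie on chromosome 1, Ccr7 (ENSMUSG00000037944, 99144196 to 99155077, minus strand) on chromosome 11 and Cxcr3 (ENSMUSG00000050232, 101731535 to 101734269, minus strand) on the X chromosome.

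RefSeq promoters on GRCm38.p6 were found for 7 of the 9 genes, all but Ccr7 and Cxcr5, and the 250 bases before each start site were searched on both strands. GAGGAA, the core of sites for the myeloid factor PU.1, was present in 4 of 7, against 23.2% of 32851 promoters. TGTGGT, the core of RUNX sites, was present in 3 of 7, against 14.0%. TGACTCA, the AP-1 site, was present in 1 of 7, against 4.46%. These are matches of letters and do not show binding. GAGGAA, or its complement TTCCTC, was found before Cxcr2, Ccr1, Ccr3 and Cxcr3, and not before Cxcr4, Cx3cr1 and Ccr2. The sequences before Cxcr2, Ccr1 and Ccr3 are printed as examples with this motif. They are chr1:74153744-74153993 on the plus strand, chr9:123968693-123968942 on the minus strand and chr9:124021721-124021970 on the plus strand. Capitals mark the matches to the 3 motifs.
Cxcr2: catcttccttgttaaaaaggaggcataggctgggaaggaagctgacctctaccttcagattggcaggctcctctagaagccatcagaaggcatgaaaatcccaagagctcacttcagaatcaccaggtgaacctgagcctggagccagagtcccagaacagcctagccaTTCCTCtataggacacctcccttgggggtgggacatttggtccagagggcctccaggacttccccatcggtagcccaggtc
Ccr1: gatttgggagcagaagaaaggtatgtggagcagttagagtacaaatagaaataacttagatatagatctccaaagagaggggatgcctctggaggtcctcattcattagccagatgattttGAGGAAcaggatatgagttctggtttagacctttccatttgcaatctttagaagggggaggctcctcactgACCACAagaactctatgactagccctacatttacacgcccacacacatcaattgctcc
Ccr3: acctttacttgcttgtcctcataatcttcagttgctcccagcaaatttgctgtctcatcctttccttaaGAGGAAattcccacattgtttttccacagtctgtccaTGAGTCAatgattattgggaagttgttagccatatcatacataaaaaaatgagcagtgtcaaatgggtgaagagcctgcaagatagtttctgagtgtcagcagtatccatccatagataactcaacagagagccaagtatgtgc

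Aged cartilage libraries held more transcripts of the 9 receptors together than any young library. The summed FPKM of the 9 was 303.0, 276.4 and 276.4 in 18-month replicates 1, 2 and 3. At 2 months it was 0.711 in replicate 1, 60.4 in replicate 2 and 6.10 in replicate 3. In counts, the 9 genes had 152, 10294 and 997 reads in young and 51903 to 62661 in aged cartilage. Of the 9 receptors, 8 were higher in every 18-month library than in every 2-month library, as were 35.6% of the 20397 genes tested. Ccr7 was the exception.

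Counts were compared between the ages with edgeR's quasi-likelihood test, and a gene was called at a Benjamini-Hochberg adjusted p-value below 0.05 with a log2 fold change above 1 or below −1. All 9 receptors passed the filter on low counts and had a log2 fold change above 0. With all 6 libraries 1 of the 9, Cxcr3, was called higher and 0 lower. Of all genes tested, 14.9% were called higher, 21.3% lower and 36.3% in either direction. At an unadjusted p-value below 0.05 were 3 of the 9 (Ccr2, Cxcr3 and Cx3cr1), against 58.9% of all genes tested. DESeq2 called 5 of the 9 higher. Of the 33836 genes it was fitted to, it called 13% higher and 15.2% lower. That number includes genes below the edgeR filter on low counts, so these shares and those of edgeR have unlike denominators. Over the 9 receptors the median log2 fold change was 3.14, against −0.02 over all genes tested. Leaving out any 1 of the other 5 libraries gave 0 to 2 receptors called. Without 2-month replicate 2, which held the most reads of each receptor among the young libraries, so that a larger difference follows from leaving it out, all 9 were called higher, their median was 4.91, and of all 21489 genes then tested 23.3% were called higher, 21.3% lower and 44.6% in either direction.

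**Figure D1:**
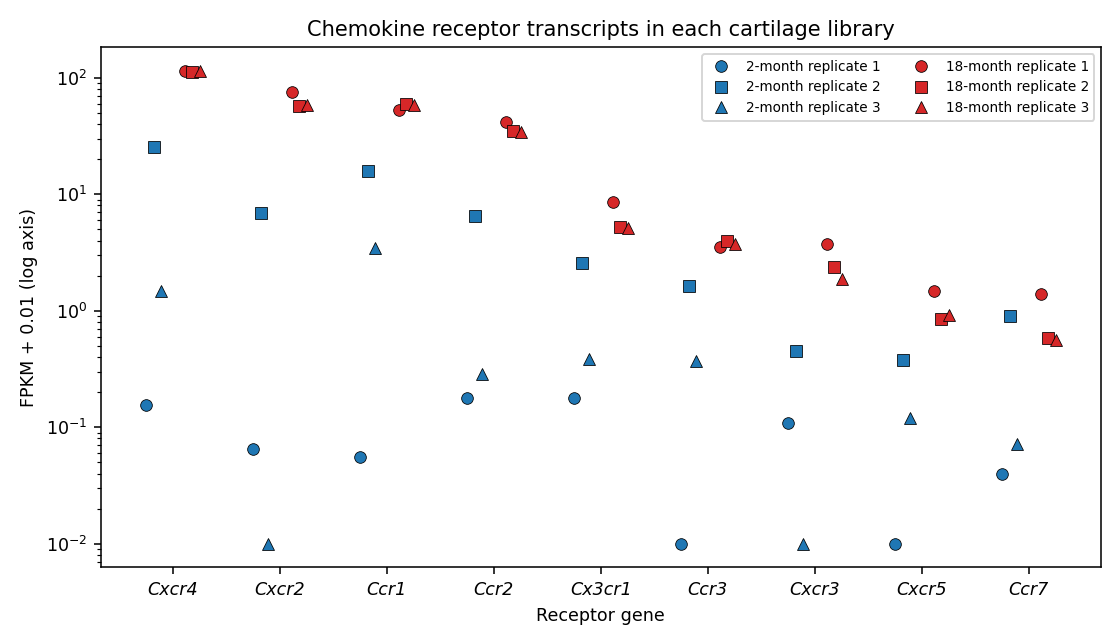
FPKM plus 0.01 on a log axis for each receptor gene, with 1 point per library, blue for 2-month and red for 18-month cartilage, and the replicate given by the shape. The 18-month points lie above all 2-month points for every receptor but Ccr7, where 2-month replicate 2 (0.886 FPKM) lies between the 18-month libraries.

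Cxcr4 binds Cxcl12 and holds blood cell precursors in the marrow. It had the highest FPKM of the 9 in each 18-month library. At 2 months it was highest in replicate 2 but below Cx3cr1 and Ccr2 in replicate 1 and below Ccr1 in replicate 3. Its FPKM was 0.144, 25.5 and 1.46 in 2-month replicates 1, 2 and 3 and 114.1, 111.6 and 113.1 in the 18-month libraries. The aged libraries were nearly alike, at 112.9 ± 1.29 (SD, n = 3), while the young libraries differed widely, at 9.03 ± 14.3 (SD, n = 3). Its log2 fold change was 3.65 (standard error 1.63, edgeR adjusted p = 0.107), and 7.01 without 2-month replicate 2 (edgeR adjusted p = 0.00178).

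Cxcr2 is the receptor by which mature neutrophils follow Cxcl1, Cxcl2 and Ppbp. Aged cartilage gave 15471, 11021 and 11284 counts. Young cartilage gave 10, 1218 and 0, so that nearly all young reads came from replicate 2. In FPKM it was at 63.7 ± 10.2 (SD, n = 3) with age and 0.0554, 6.83 and 0 at 2 months. The log2 fold change of 4.80 was the largest among the receptors and also had the largest standard error, 2.18 (edgeR adjusted p = 0.111). Without 2-month replicate 2 it was 10.94 (edgeR adjusted p = 0.000146), set against 10 counts in all. A list of 12 neutrophil markers, among them the granule genes Ngp and Camp, reached 13.8, 3618 and 61.3 CPM together in young and 39590 to 44160 CPM in aged cartilage. Of the 12, 0 were called with all libraries and 12 higher without 2-month replicate 2. In the fit without that library 23.3% of all genes tested were called higher. It had the highest neutrophil marker sum among the young libraries, so a larger difference follows from leaving it out. Ly6g was at 0 in 2-month replicate 1 and Elane at 0 in replicate 3. The part of these cells in the Cxcr2 values was not tested.

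Ccr1, a receptor for Ccl3, Ccl5 and Ccl9 on monocytes, neutrophils and osteoclast precursors, had an FPKM of 53.3, 59.6 and 58.7 in the 18-month libraries. At 2 months it was 0.0457, 15.7 and 3.45 in replicates 1, 2 and 3. Replicate 3 thus held 550 counts of Ccr1 beside 0 of Cxcr2. The log2 fold change of Ccr1 was 3.14 (standard error 1.52, edgeR adjusted p = 0.129), and 4.91 without 2-month replicate 2 (edgeR adjusted p = 0.0276). It was called also without 2-month replicate 1 (2.56, edgeR adjusted p = 0.0318). Osteoclast markers (6 genes, with Acp5 and Ctsk) summed to 70.0, 3856 and 810.5 CPM in 2-month replicates 1, 2 and 3 and to 1278 to 1617 CPM at 18 months, and 0 of the 6 were called. Their part in the Ccr1 values was not tested.

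Ccr3 is the eotaxin receptor of eosinophils. Its counts were 774, 813 and 778 at 18 months and 0, 311 and 67 at 2 months. The aged libraries agreed closely in FPKM, at 3.73 ± 0.215 (SD, n = 3), and 2-month replicate 2 reached 1.62. The fold change on the log2 scale was 2.48 (standard error 1.46, edgeR adjusted p = 0.20), and 4.24 without that library (edgeR adjusted p = 0.0293). Of 6 eosinophil markers, such as Epx and Prg2, 2 were called higher, and their summed level was 0.397, 110.7 and 2.34 CPM at 2 months and 1553 to 1797 CPM at 18 months. Siglecf and Il5ra were at 0 in 2-month replicates 1 and 3.

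Ccr2 draws inflammatory monocytes out of the marrow towards Ccl2. It had 18871, 14769 and 14803 counts at 18 months and 63, 2559 and 107 at 2 months, the highest count among the receptors in each 18-month library. Aged cartilage averaged 36.9 ± 4.04 FPKM and young cartilage 2.30 ± 3.60 (SD, n = 3 each). On the log2 scale the fold change was 4.0 (standard error 1.45, edgeR adjusted p = 0.0621). It was 7.24 without 2-month replicate 2, where Ccr2 had the lowest adjusted p-value of the 9 (6.09e-05, edgeR). Cx3cr1, the fractalkine receptor of patrolling monocytes and tissue macrophages, had 2586, 1482 and 1483 counts at 18 months and 42, 679 and 96 at 2 months, with a log2 fold change of 2.58 (standard error 0.99, edgeR adjusted p = 0.0724), and 4.41 without 2-month replicate 2 (edgeR adjusted p = 0.000664). Among 10 markers of monocytes and macrophages 2 were called higher, C1qa and C1qb, and the others differed in direction. Ly6c2, of inflammatory monocytes, was at 0.683, 86.2 and 1.45 CPM at 2 months and at 662.3 to 668.9 CPM at 18 months (not called), and Csf1r was at 2.54, 198.7 and 35.8 against 207.8 to 219.6 CPM. F13a1 had log2 fold change −0.45 and Mertk −0.60, neither called, and F13a1 alone made up 579.2 to 704.9 CPM of the list's sum of 754.0 to 1071 CPM at 2 months, against 1895 to 2199 CPM in all at 18 months.

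Cxcr3, Cxcr5 and Ccr7, described here with lymphocytes, had the lowest mean FPKM of the 9 at 18 months. The libraries of Cxcr3 overlapped those of Ccr3. Cxcr3, which binds Cxcl9 and Cxcl10 on activated T and NK lymphocytes, was counted 431, 259 and 205 times in aged and 10, 45 and 0 times in young cartilage. Its FPKM rose from 0.178 ± 0.229 to 2.64 ± 0.950 (SD, n = 3 each), and its log2 fold change was 3.81 (standard error 1.26, edgeR adjusted p = 0.0472). This call was lost without any 1 of the 18-month libraries or without 2-month replicate 1 (edgeR adjusted p = 0.0952 to 0.115), and with no filter, total-count scaling or a replicate block (0.0508 to 0.0663), and it held without 2-month replicate 2 (5.53, edgeR adjusted p = 0.00589). Of 10 markers of T and NK lymphocytes 6 were called higher, and the list summed to 1.28, 22.4 and 2.21 CPM at 2 months and 146.3 to 162.6 CPM at 18 months.

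Cxcr5 guides B lymphocytes into follicles towards Cxcl13. It had 330, 178 and 192 counts at 18 months and 0, 72 and 21 at 2 months. Its fold change on the log2 scale was 2.70 (standard error 1.27, edgeR adjusted p = 0.121), and Cxcr5 was called without 2-month replicate 2 (4.12, edgeR adjusted p = 0.0262) and without 2-month replicate 1 (2.13, edgeR adjusted p = 0.0437). Ccr7 leads T lymphocytes and dendritic cells to lymph nodes. Its counts were 185, 72 and 70 at 18 months and 4, 103 and 7 at 2 months, and the ages overlapped. Ccr7 had a log2 fold change of 1.33 (standard error 1.18, edgeR adjusted p = 0.379), and 3.93 without 2-month replicate 2 (edgeR adjusted p = 0.00449). The B lymphocyte list also overlapped between the ages, with 2-month replicate 2 above all aged libraries, at a summed level of 5.44, 242.9 and 8.20 CPM at 2 months and 185.8 to 232.2 CPM at 18 months, and 1 of its 10 genes, Cr2, was called. The part of B lymphocytes in the Ccr7 and Cxcr5 values was not tested.

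**Figure D2:**
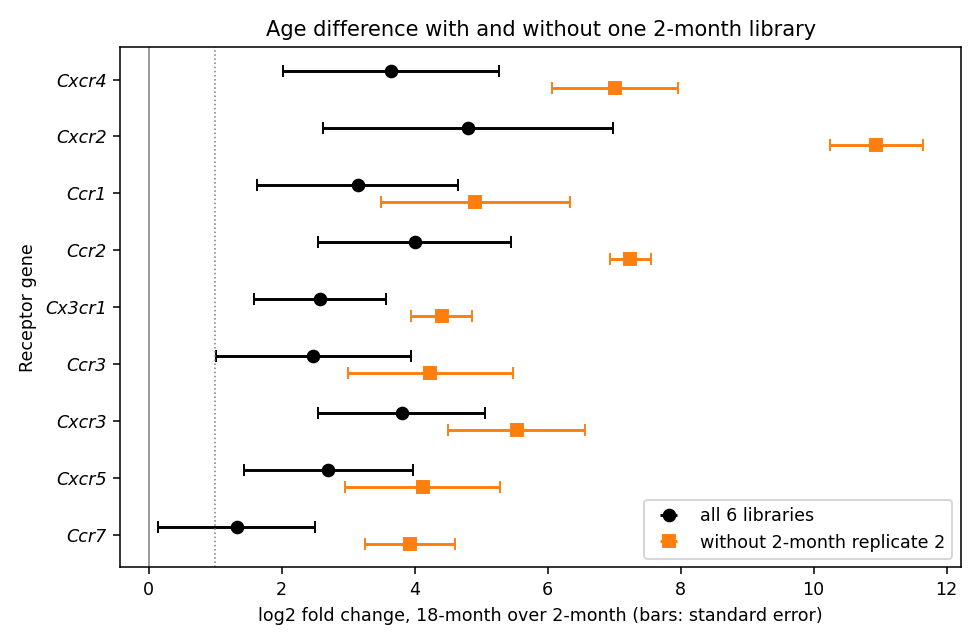
The log2 fold change of each receptor, 18-month over 2-month, from edgeR with all 6 libraries (black circles) and without 2-month replicate 2 (orange squares), with bars for the standard error and a dotted line at 1. Each value lies further to the right without that library, most of all for Cxcr2, which goes from 4.80 to 10.94.

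On the FPKM scale, which compares genes per transcript length, the order at 18 months was Cxcr4, Cxcr2, Ccr1, Ccr2, Cx3cr1, Ccr3, Cxcr3, Cxcr5 and Ccr7, with means from 112.9 down to 0.838. Neighbours whose 3 libraries overlapped were Cxcr2 and Ccr1, Ccr3 and Cxcr3, and Cxcr5 and Ccr7, although Cxcr5 was above Ccr7 in 3 of 3 libraries. Ccr1 was above Cxcr2 in 2 of the 3, and Cxcr2 was far above it only in replicate 1, at 75.5 against 53.3 FPKM. At 2 months every pair of neighbours overlapped, and replicate 2 had the highest value of each gene.

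The make-up of the receptor transcripts varied less between the 18-month libraries than between the 2-month libraries. Cxcr4 made up 37.7%, 40.4% and 40.9% of the summed FPKM of the 9 in the aged libraries, Cxcr2 24.9%, 20.8% and 21.01%, Ccr1 17.6%, 21.6% and 21.2% and Ccr2 13.7%, 12.6% and 12.4%. In 2-month replicate 2 the shares were 42.2% for Cxcr4, 11.3% for Cxcr2, 26.1% for Ccr1 and 10.7% for Ccr2. Cxcr2 thus took a smaller share there than in each aged library, and Ccr1 a larger one. In 2-month replicate 3, Ccr1 alone made up 56.6% and Cxcr4 24.0%, while Cxcr2 and Cxcr3 had no count. Replicate 1 rested on 152 counts, with Cx3cr1 at 23.8% and Ccr2 at 23.7%, and its shares are correspondingly imprecise. Ccr3 took 1.16% to 1.43% at 18 months, 2.69% in 2-month replicate 2, 5.91% in replicate 3 and none in replicate 1. As shares of summed counts, which are not scaled to transcript length, Ccr2 was the largest in each aged library at 28.2% to 30.1%, and Cxcr4 made up 22.1% to 24.9%.

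**Figure D3:**
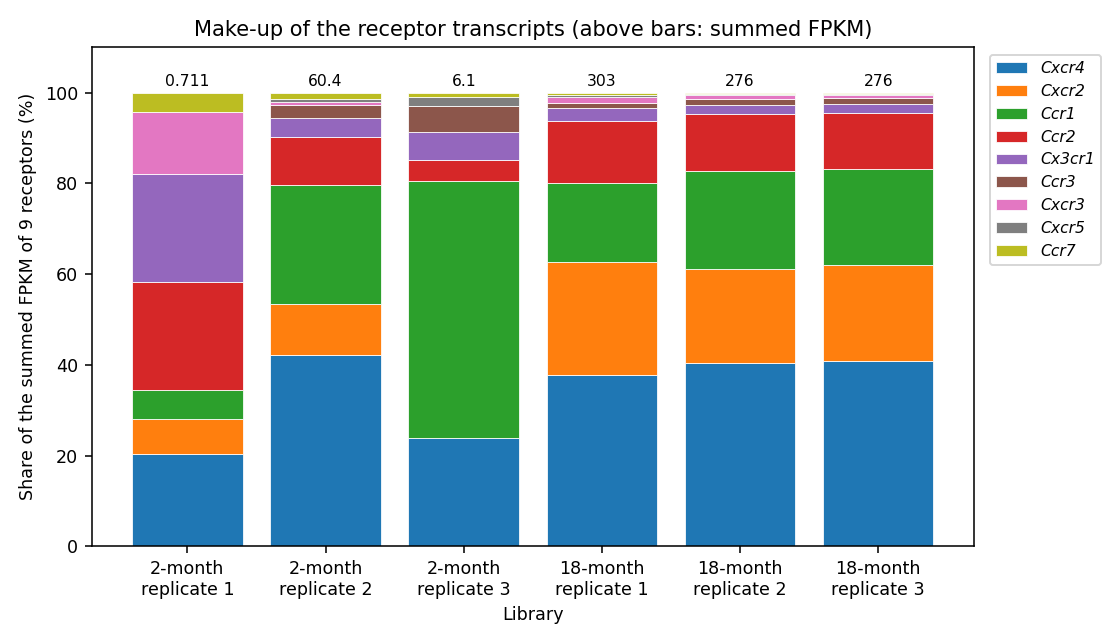
Share of each receptor in the summed FPKM of the 9 (percent) in each library, with the summed FPKM above each bar. The 3 aged bars are nearly alike, 2-month replicate 2 has a smaller Cxcr2 segment (11.3%), and in 2-month replicate 3 the Ccr1 segment takes 56.6%.

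Counts were also set against those of Ptprc, which encodes the surface protein CD45 of leukocytes, had 25029 to 35268 counts at 18 months and was itself not called (log2 fold change 3.62, edgeR adjusted p = 0.104). In 2-month replicate 2, with 5842 Ptprc counts, Cxcr4 had 461.5 counts per 1000 Ptprc counts, within the range of the 18-month libraries (393.3 to 521.0). Cxcr2 had 208.5 there and 430.8 to 450.8 in the aged libraries, which was 2.11 times as much. Ccr2 had 438.0 against 535.1 to 591.4, and Cxcr3 7.70 against 8.19 to 12.2. The other 5 receptors were lower per Ptprc count in every aged library than in 2-month replicate 2. Ccr7 had 17.6 per 1000 Ptprc counts in that young library and 2.80 to 5.25 in the aged libraries. Cx3cr1 had 116.2 against 57.9 to 73.3, Ccr3 53.2 against 21.9 to 31.8, Cxcr5 12.3 against 6.96 to 9.36 and Ccr1 446.9 against 287.6 to 423.4.

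In the other young libraries Ptprc had 38 counts (replicate 1) and 392 (replicate 3), so their ratios are imprecise. Over all 3 young libraries, Ccr7 and Cx3cr1 were lower per Ptprc count in every aged library, Cxcr2 was higher, and the other 6 overlapped. In replicate 3 Ccr1 reached 1403 and Ccr3 170.9 per 1000 Ptprc counts, the highest values of both genes in any library. These ratios are a description, since 3 libraries against 3 cannot give an exact permutation p-value below 0.1.

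**Figure D4:**
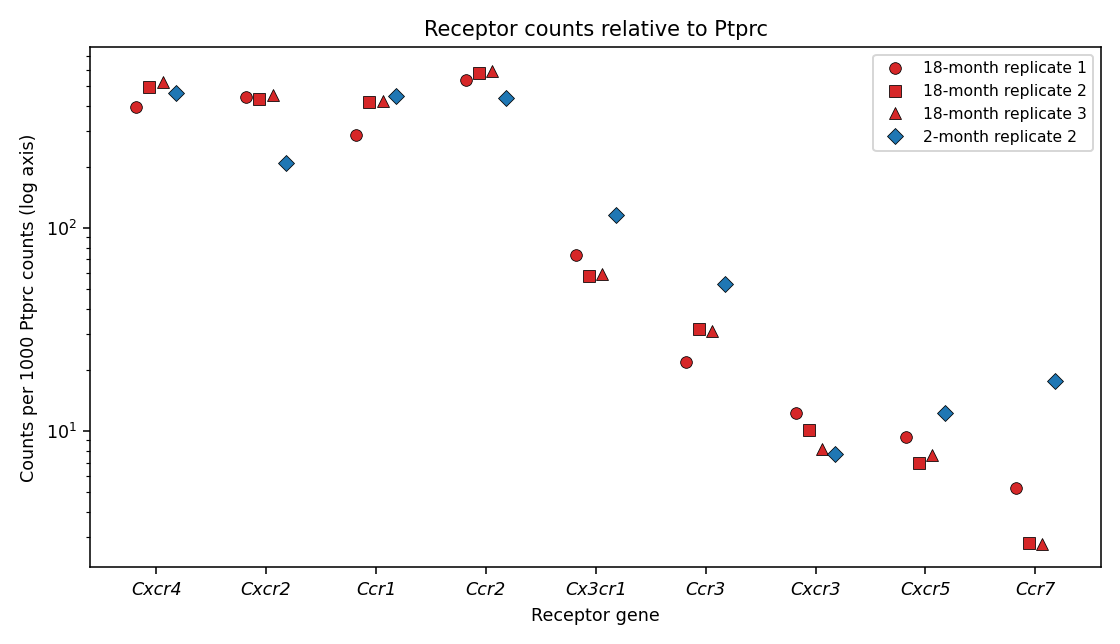
Counts of each receptor per 1000 counts of Ptprc on a log axis in the 3 aged libraries (red) and in 2-month replicate 2 (blue diamond). Cxcr4 overlaps, Cxcr2, Ccr2 and Cxcr3 are higher in the aged libraries, and the other 5 receptors are lower, Ccr7 by the most.

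Among the 6 libraries the genes whose log2 CPM followed each receptor most closely were sought among tested genes averaging 1 FPKM or more, and 2 were taken for each. Pearson's r over the 6 libraries was at least 0.9917 for all of these pairs. Since the libraries differ widely between the ages and among the young libraries, r is given as a description only. Ccr1 and Ccr3, neighbours on chromosome 9, were each the second most alike to the other, after Lcp2 for both. The most alike were Incenp and Slc15a3 for Ccr2, Hvcn1 for Cxcr4, Gbp8 and Apol11b for Cxcr2, and Iglc1 and Gusb for Cx3cr1. For the scarcer receptors they were Lfng and Alox15 for Cxcr3, Vkorc1l1 and Cd209a for Cxcr5 and Bin1 and Plekhm1 for Ccr7. Between 8 genes, for Ccr7 and for Cxcr3, and 728 genes, for Ccr2, had an r above 0.99.

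Of 15 further receptors 13 were tested. Higher calls numbered 5 (among them Cxcr1, Cxcr6, Xcr1 and Ackr1), against 14.9% of all genes tested. Lower calls numbered 2 (Ackr2 and Ackr3), against 21.3% of all genes tested. These 13 receptors had a median log2 fold change of 1.87. Ackr3, an atypical receptor that takes up Cxcl12 and does not signal through G proteins, had the highest mean FPKM of all these receptors at 2 months. Its FPKM was 42.4 ± 11.9 at 2 months and 5.00 ± 2.12 at 18 months (SD, n = 3 each), and its log2 fold change was −3.18 (standard error 0.39, edgeR adjusted p = 0.00229). Cxcr4, which also binds Cxcl12, had a log2 fold change of 3.65 and was not called. Ackr3 was 9910, 5909 and 8110 counts at 2 months, so replicate 2 had the fewest. Cxcr1, also a neutrophil receptor, had 4, 0 and 0 counts at 2 months and 204, 242 and 186 at 18 months (log2 fold change 6.90, edgeR adjusted p = 0.00465). Xcr1, of cross-presenting dendritic cells, had 0, 4 and 0 against 34, 64 and 21 counts (4.57, edgeR adjusted p = 0.0239), and Cxcr6, of resident lymphocytes, 9, 31 and 4 against 267, 248 and 227 (3.85, edgeR adjusted p = 0.00714). Ackr1, the chemokine-binding protein of red cells and venules, had a log2 fold change of 3.39 (edgeR adjusted p = 0.0492), and 7 erythroid markers, of which 1 was called higher, summed to 130.0 to 3210 CPM at 2 months and 12820 to 17360 CPM at 18 months. Ccr6 had no count at 2 months and 47, 8 and 57 at 18 months, at least 10.2-fold higher than 3 counts per library, and was not tested in the fit of all libraries. Without 2-month replicate 2, 15 of these receptors were tested, and 10 were called higher and 2 lower. Of all genes then tested, 23.3% were called higher and 21.3% lower.

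Of 25 genes for ligands of the 9 receptors 18 were tested, and 10 were called higher and 1 lower. The shares over all genes tested were 14.9% and 21.3%. Among the tested ligands the median log2 fold change was 4.06. It was 3.60 with the 2 genes at the floor in young cartilage set to their lower bounds. Ccl7, a ligand of Ccr2, had no count at 2 months and 39, 20 and 34 at 18 months, at least 8.48-fold higher than 3 counts per library. Cxcl2, a neutrophil chemokine that binds Cxcr2, had 0, 0 and 3 counts against 123, 227 and 252, at least 56.1-fold higher. Ccl8, a monocyte chemokine, rose from 0.141 ± 0.122 to 19.5 ± 2.46 FPKM (SD, n = 3 each; log2 fold change 6.82, edgeR adjusted p = 0.00281). For Ccr1, the ligands Ccl3, Ccl5, Ccl6 and Ccl9 were each called higher, with log2 fold changes of 3.63 to 5.32, and Ccl6 was the most abundant of them at 165.3 ± 21.8 FPKM at 18 months (edgeR adjusted p = 0.0396). Ppbp, a platelet chemokine that binds Cxcr2, was the most abundant ligand, at 839.8 ± 179.2 FPKM (SD, n = 3), and had 3, 1675 and 0 counts at 2 months (6.59, edgeR adjusted p = 0.0822). Beside it, 5 of 5 megakaryocyte markers were called higher. The part of megakaryocytes in the Ppbp values was not tested.

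Of the ligands of Cxcr3, the one receptor called, Cxcl9 was called higher with 543, 548 and 543 counts against 0, 38 and 0 (5.25, edgeR adjusted p = 0.0378). Cxcl10 had 163, 67 and 62 counts against 4, 54 and 0 (2.13, edgeR adjusted p = 0.241), and Cxcl11, at 0 to 8 counts in every library, was not tested. Cxcl12, the ligand of Cxcr4 (log2 fold change 3.65, not called), had 75190 to 76494 counts at 18 months and 610, 18521 and 651 at 2 months, a log2 fold change of 3.38 (edgeR adjusted p = 0.0888). The only ligand called lower was Cx3cl1, fractalkine, the membrane-bound chemokine that Cx3cr1 binds. It had 1207, 462 and 811 counts at 2 months and 341, 114 and 194 at 18 months (log2 fold change −2.27, standard error 0.55, edgeR adjusted p = 0.0175), while Cx3cr1 had a log2 fold change of 2.58 and was not called. Ccl21a, Ccl21b and Cxcl13, ligands of Ccr7 and Cxcr5, had at most 66 counts in any library and were not tested. Ccl19, another ligand of Ccr7, had 16, 11 and 0 counts at 2 months and 110, 63 and 62 at 18 months. Its log2 fold change was 2.82, and it was not called (edgeR adjusted p = 0.0699).

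**Figure D5:**
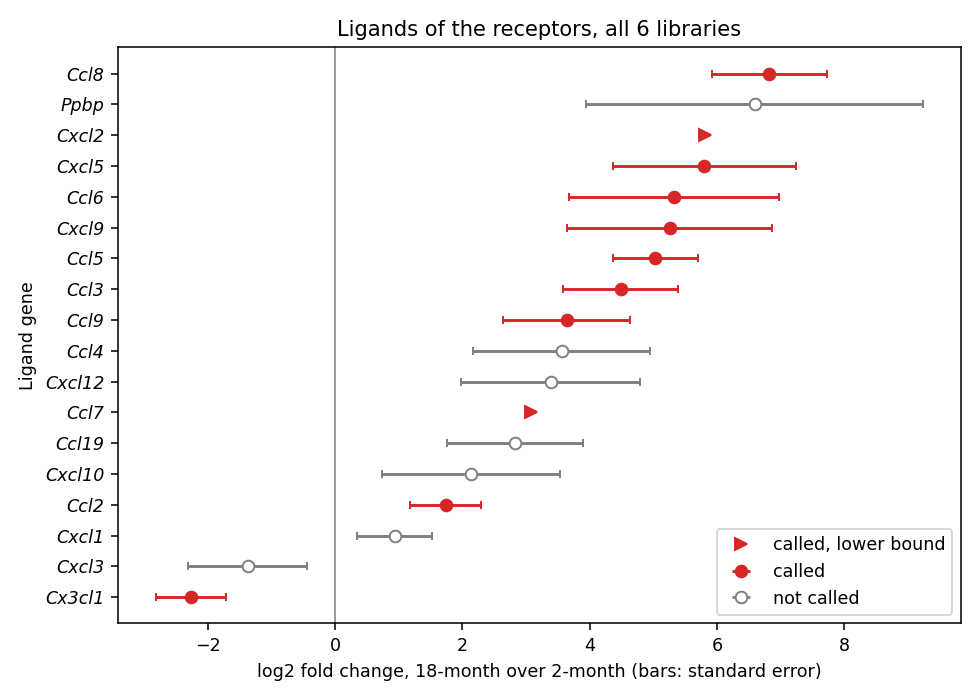
The log2 fold change, 18-month over 2-month, of the 18 tested ligand genes with all 6 libraries, in red for called and grey for not called, with bars for the standard error and triangles for lower bounds of genes at the floor at 2 months. Cx3cl1 is the only called gene to the left of 0 (−2.27), and Ppbp has the widest bar (standard error 2.64).

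Of 24 genes that carry the receptor signal into the cell, all tested, 9 were called higher and 0 lower. The shares over all genes tested were 14.9% and 21.3%. These 24 genes had a median log2 fold change of 2.03. Rgs1, which ends G protein signals in lymphocytes, had 0, 33 and 0 counts at 2 months and 355, 852 and 714 at 18 months (5.71, edgeR adjusted p = 0.0308). Arrb2, a beta-arrestin that uncouples and internalizes the receptors, rose from 6.34 ± 7.01 to 115.7 ± 14.7 FPKM (SD, n = 3 each; 4.17, edgeR adjusted p = 0.0104), and Rgs2 had a log2 fold change of 2.71 (edgeR adjusted p = 0.00865). Among receptor kinases, Grk2 and Grk6 were called higher (2.05 and 2.42), and Grk5 was at −0.98, within the fold change limit. Gnai2, the inhibitory G protein subunit to which chemokine receptors couple, went from 86.5 ± 4.41 to 177.0 ± 8.67 FPKM (SD, n = 3 each), a log2 fold change of 0.95 that is under the limit (edgeR adjusted p = 0.00264). Rac2, the leukocyte form of a GTPase that drives migration, had 30, 5901 and 304 counts against 35555 to 38243 (4.01, edgeR adjusted p = 0.0949). Without 2-month replicate 2, 16 of the 24 were called higher and 1 lower, against 23.3% and 21.3% of all genes then tested.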

How the data were processed

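Messenger RNA of articular cartilage from 2-month-old (3 libraries) and 18-month-old mice (3 libraries) was captured by its poly(A) tail, and the protocol marks the second strand with dUTP and adds molecular identifiers. Whether counting used strand or identifiers is not given in the sources used here. Raw read counts for each gene were deposited as whole numbers, together with FPKM values, which the authors scaled to transcript length and library size. The submitters' processing notes name cutadapt 1.9, HISAT2 2.0.4, UMI-tools, StringTie 1.3.4d, DESeq2 and edgeR, without saying what each did. The genome build and annotation are not given in the sources used here. Of the 33971 genes, 33865 were found in GENCODE M21, 91.2% of them at the same GRCm38 coordinates. Library totals were 48171507 to 59085179 counts, and 0 columns of library values stayed unused.

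The test on counts was that of edgeR 4.0.16 under R 4.3.3 (TMM, filterByExpr, quasi-likelihood, no replicate block), with Benjamini-Hochberg adjustment over 20397 genes. Standard errors were derived from the size of each log2 fold change and its F statistic. A group with at most 3 counts in every library was taken as at the floor, and folds against it are lower bounds. The receptors, gene lists, 14 marker lists and the naming rule were chosen with earlier results of these data known. The rule names all 9 receptors, the 2 genes most like each, and of every other list the 3 largest called changes and the 2 highest mean FPKM, with the ligands of called receptors. Some genes are not reported here. Other list members were named after their values were seen. Alternatives were other size factors, total counts, TMM without the 100 most abundant genes, no filter, DESeq2 1.42.0, limma 3.58.1 on log2(FPKM + 0.1) and log2(FPKM + 1), a test against a fold change of 2, a replicate block and leaving out each library. Replicate numbers carry no pairing in the labels. The test was checked on simulated counts with a fixed dispersion of 0.2, which was not set to the spread of the receptors. Marker lists for endothelial cells (0 of 6 called), skeletal muscle (3 of 4 tested lower), dendritic cells (0 of 5) and basophils and mast cells (1 of 4 higher) were also tested. Figures were drawn with matplotlib 3.10.9.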

Additional observations from a re-analysis of the deposited data

How the results depend on the processing

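With all libraries, the number of receptors called higher (1) became 0 with total counts alone, no filter, a test against a fold change of 2, the replicate block, and 18-month replicates 2 and 3 summed (chosen after seeing the data), 5 with DESeq2, 8 with limma on log2(FPKM + 0.1) and 7 on log2(FPKM + 1). The cause was not tested. Of the 21539 genes in each limma fit, 4365 were called higher on log2(FPKM + 0.1) and 3041 on log2(FPKM + 1). Leaving out 1 library gave 0 to 9 receptors, 2095 to 5007 genes higher, 3 to 10 other receptors higher and 1 to 2 lower, 5 to 13 ligands higher and 0 to 1 lower, and 7 to 16 signalling genes higher and 0 to 1 lower. Signalling genes called higher numbered 16 with DESeq2 and 17 with either limma fit, and limma on log2(FPKM + 1) called 2217 genes lower. The test against a fold change of 2 left 1366 genes higher and 2667 lower, 3 other receptors higher and 1 lower, 6 ligands higher and 0 lower, and 5 signalling genes. With the summed libraries 1 other receptor was lower, 5 ligands higher and 0 lower. The Cxcr3 call was lost in 9 of 16 alternatives (adjusted p = 0.000176 to 0.115 over all of them), and no log2 fold change of a receptor changed sign. Per Ptprc count and without 2-month replicate 2, 7 of the 9 log2 ratios moved by more than their SD over the 18-month libraries. Another 1 stayed within it, and Cxcr3 reversed, to −1.19 on the log2 scale.

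The deviations of same-numbered libraries from the mean of their age had r = 0.0337, 0.0442 and −0.0241. With 3 libraries per age, these values cannot decide whether the numbers pair samples, and the labels do not say. The replicate block gave 2523 genes higher, 3509 lower and 0 receptors called, with Cxcr3 at an adjusted p of 0.0663. Counts below about 10 in young cartilage, as for Cxcr2 without 2-month replicate 2, leave the size of a fold change imprecise.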
